A study of Rattus norvegicus with 6 samples.

Results

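The 40 genes described here belong to secretory protein folding and the endoplasmic reticulum (ER) stress response, and were followed in islets of the pancreas from male Wistar rats, 3 or 12 months of age. They were chosen by name from what is known of the pathway, with earlier results of these data known. Their probes were found on the arrays through RefSeq mRNA accessions. Of the 40 genes, 34 matched a probe whose signal stood well above background on 3 or more arrays out of 6, and 33 of these could be tested, out of 11202 tested genes in all. Islets hold the insulin-secreting beta cells together with other endocrine cells. They were freed with collagenase from 3 rats of each age, both groups untreated and of the same strain and sex, and the RNA of each array was labelled with a single dye. The rats of each age are the replicates (n = 3 per age throughout), and nothing in the labels states that RNA of several rats was pooled.

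The ER is where insulin and other secreted proteins enter the secretory pathway. Proinsulin passes through the translocon, is held by chaperones, and has its disulphide bonds made by isomerases that are reoxidised by the Ero1 enzymes; what does not fold is sent out again for degradation. When unfolded protein builds up, 3 sensors in the ER membrane, Ern1 (IRE1), Eif2ak3 (PERK) and Atf6, slow translation and raise the genes of folding and degradation through the factors Xbp1, Atf4 and Atf6. Beta cells, which make insulin in large amounts, are known for a strong dependence on this system.

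Arrays of the 3-month-old and of the 12-month-old rats were read in separate scans, and an effect of the scan and one of age cannot be told apart in the values below. Probes well above background made up 75.7% ± 2.32 (SD) of all probes at 3 months and 61.2% ± 2.61 at 12 months, and the median signal of the negative control spots was 30.2 ± 0.764 and 90.5 ± 0.866 scanner units. The islet hormone gene Ins1 read between 18.43 and 18.86 normalised log2 intensity on all 6 arrays, but the digestive enzyme genes of acinar cells, which surround the islets in the pancreas, were also present: 19 of 21 were tested, and 18 of these were above background on every array. The summed acinar signal ranged from 21.8 to 22.2 log2 units at 12 months and from 21.9 to 22.1 at 3 months. Of the 19, 0 passed either threshold used below or an unadjusted p of 0.05. Quantile normalisation gives the brightest probes nearly the same values on every array. The Ins1 range and the acinar sums therefore cannot show whether the content of these cells was alike. Islet tissue is a mixture, and in such bulk RNA fewer cells of a type and less RNA per cell cannot be told apart.

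Signal at 12 months was higher for some folding genes, lower for a few and near the 3-month level for others, with no common direction. All differences are 12 months minus 3 months on the log2 scale, from limma with Benjamini-Hochberg adjustment over all tested probes. At an adjusted p under 0.05, 5 of the 33 genes were higher at 12 months (Ero1a, Ssr3, Canx, Eif2ak3 and Hsp90b1) and 0 were lower; over all tested genes 4.87% were higher and 2.98% lower. Ero1a met the background filter mainly through its 12-month arrays. Below an unadjusted p of 0.05 there were 10 of the 33, a share close to the 30.6% of all tested genes, and of these Hyou1 (p 0.0116) and Dnajb11 (p 0.0166) were the lower ones. The study itself used a fold change over 2 at an unadjusted p under 0.05, which is called the study's threshold here and was applied to limma's p. By it 8 were higher and 1 was lower, against 9.80% and 9.67% of all tested genes. Calr, Pdia4 and Ppp1r15b joined the genes that rose, and Hyou1 was the one that fell. The tables of the study name a paired test instead, and by it, over 3 pairs, 1 of them formed by elimination, 3 genes passed (Hsp90b1, Canx and Ero1a, all higher). With each array shifted to a common 75th percentile in place of quantile normalisation, the split at the study's threshold was 7 higher and 4 lower, against 7.46% and 15.8% of all tested genes.

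The median difference of the 33 genes was 0.17, beside -0.13 over all tested genes. Above 0 were 19 of the 33, and 4871 of all 11202 tested genes. The 3 arrays of one age lay wholly above those of the other for 16 of the 33 genes, 11 higher and 5 lower at 12 months, where 17.0% and 22.1% of all tested genes did so. With the 75th percentile shift 7 lay wholly higher and 10 wholly lower, against 12.8% and 30.6% of all tested genes. That shift moved the median of all genes to -0.34 and that of these genes to -0.17, so that they stood 0.17 above all genes in place of 0.30. A difference within 0.5 log2 units of 0 was found for 17 of the 33, a count that was not made over all tested genes.

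**Figure D1:**
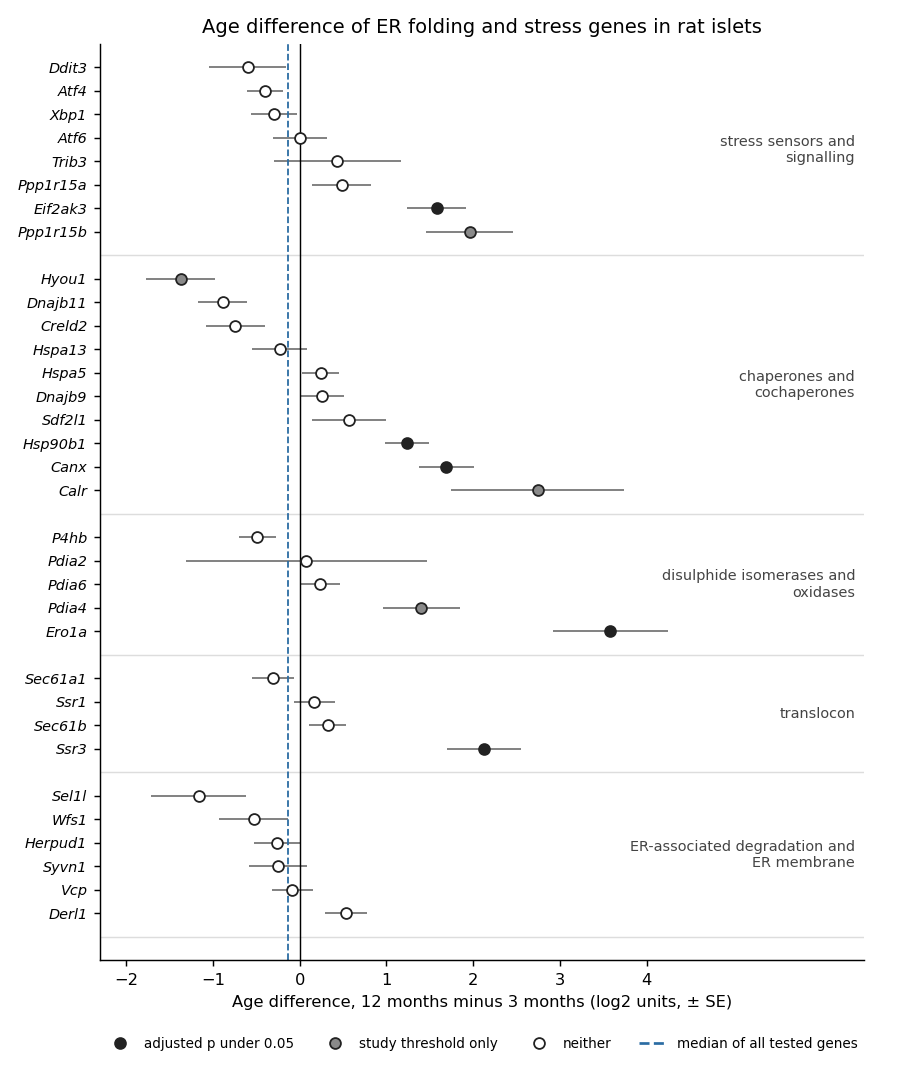
Age difference of each of the 33 tested genes (12 months minus 3 months, log2 units, points with standard error), grouped by role; black points passed an adjusted p under 0.05, grey ones only the study's threshold, and the dashed line is the median of all tested genes at -0.13. Genes past a threshold lie to the right in every role except degradation, and Hyou1 at -1.37 is alone on the left. In degradation 0 of 6 tested genes passed, too few genes to set that role apart.

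Much of the folding machinery is known to be switched on through short elements near the gene start, and these are shown here. Genes that carry them had differences of both signs, but Hyou1 alone passed a threshold downwards. The ER stress response element (ERSE), read by Atf6 and Xbp1, was searched as CCAAT and CCACG separated by any 9 bases, on both strands, in the RefSeq windows of assembly GRCr8 that run from 250 bases before to 50 bases after each gene start. It stood in 22 of 33469 windows (0.0657%). Among them were the windows of 8 of the 32 genes described here that had one. Capitals mark the parts searched for, with 5 flanking bases on each side, and the coordinates are those of the element without its flanks.
Hspa5, chr3:38452973-38452991, plus strand: gttcaCCAATcggaggcctCCACGacggg
Hsp90b1, chr7:23012451-23012469, minus strand: caaacCCAATcgaaaggagCCACGcttcg
Hsp90b1, chr7:23012347-23012365, plus strand: acccaCCAATcgtgcctcaCCACGcactc
Calr, chr19:40213135-40213153, minus strand: ctgggCCAATcagggtcgaCCACGcgttg
Canx, chr10:35158069-35158087, minus strand: cttgtCCAATcatcacgctCCACGaagaa
Xbp1, chr14:84604558-84604576, plus strand: acaggCCAATcgcagacggCCACGaccct
Creld2, chr7:121789239-121789257, minus strand: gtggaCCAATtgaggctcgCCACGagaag
The remaining ERSE windows were those of Dnajc3 and Ero1b, which had no tested probe. The element of Hspa5 began 43 bases before the gene start, that of Xbp1 65 bases before it, and that of Calr 232 bases before it.

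A second form, ERSE-II (ATTGG and CCACG separated by any 1 base), stood in 17 windows (0.0508%), among them those of Hyou1, Dnajb11 and Herpud1. It is shown for the gene that fell and for a neighbour in the list that pointed the same way.
Hyou1, chr8:53602794-53602804, minus strand: tccccATTGGgCCACGtagaa
Hyou1, chr8:53602694-53602704, minus strand: tgcggATTGGcCCACGtcacg
Dnajb11, chr11:91672800-91672810, minus strand: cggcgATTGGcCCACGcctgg
No gene described here had both forms in its window. Of the 11 genes with either form 9 were tested: their differences ran from -1.37 (Hyou1) to 2.74 (Calr) with a median of -0.26, and 3 of them passed the study's threshold upwards and 1 downwards. Of the 21 genes with a window and neither form 19 were tested, with a median of 0.17, 4 passing upwards and 0 downwards. Over all tested genes the median was -0.13, and 9.80% passed upwards and 9.67% downwards. The groups with and without an element are small and were not compared by a test. An element of another kind, read by Atf4 with a partner (TGATG and AA separated by any 1 base), is common: it stood in 3.98% of all windows and in those of Trib3, Herpud1 and Ppp1r15b. Ppp1r15b is shown because it was the one of these 3 that passed the study's threshold.
Ppp1r15b, chr13:47129822-47129829, plus strand: ccggcTGATGcAActtgc
A match is a description of the letters and not of binding, and the RefSeq start need not be the start used in islets.

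**Figure D2:**
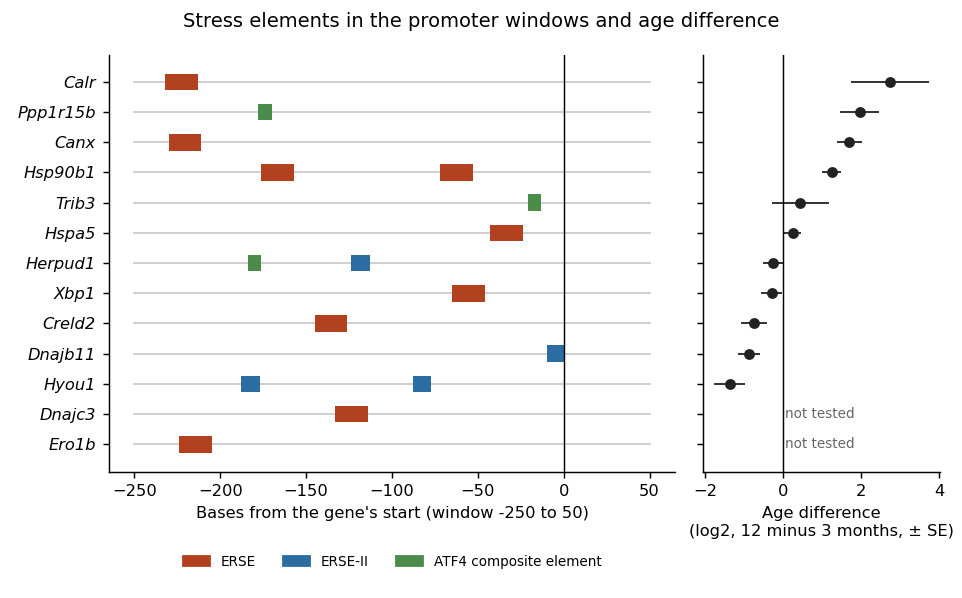
Left, positions of the ERSE, ERSE-II and Atf4 element matches in bases from the gene start, each grey line being a window from 250 bases before to 50 after it; right, the age difference of the same gene (log2, 12 minus 3 months, with standard error), with the genes in order of it. Genes with an ERSE lie near the top (Calr, 2.74) as well as below 0 (Creld2, -0.74), and the 3 genes with ERSE-II (Herpud1, Dnajb11 and Hyou1) are all below 0. Of the genes below 0 here only Hyou1 passed the study's threshold. Over all 11202 tested genes 4871 were above 0, so that a value below 0 is common.

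Among the stress sensors and signalling genes 8 of 9 were tested, and 2 were higher at 12 months, Eif2ak3 and Ppp1r15b. Eif2ak3, the PERK kinase that halts translation by phosphorylating eIF2 alpha, read 12.15, 11.88 and 12.04 on the 12-month arrays 1 to 3 and 9.86, 11.07 and 10.41 on the 3-month arrays (normalised log2 intensity, as for all levels below). Every 12-month array was above every 3-month array, and the 3-month arrays spread more widely (SD 0.605 against 0.135). The difference was 1.58 ± 0.34 (SE), 2.99-fold, with an adjusted p of 0.0410. Ppp1r15b, the constitutive subunit of the phosphatase that reverses the PERK signal, read 11.03, 10.93 and 11.13 at 12 months and 9.16, 10.04 and 8.01 at 3 months. Its difference was 1.96 ± 0.50 (3.89-fold) with an adjusted p of 0.0571, so that it passed only the study's threshold. Its stress-induced counterpart Ppp1r15a (GADD34) differed by 0.49 ± 0.34 and its ages overlapped.

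The transcription factors of the response did not pass either threshold. Atf4, the factor translated when eIF2 alpha is phosphorylated, read 15.35, 15.31 and 15.37 at 12 months and 15.72, 15.74 and 15.78 at 3 months. The ages did not overlap and the arrays of an age lay closer together than for the other 32 genes (pooled SD 0.030), but limma, which draws each variance towards that of all probes, gave -0.40 ± 0.21 with an adjusted p of 0.221. The methods' t-test, which uses the gene's own spread alone, gave the same difference an adjusted p of 0.0289. Xbp1, the factor activated when IRE1 splices its mRNA, read 15.42, 15.29 and 15.51 at 12 months and 15.79, 16.03 and 15.29 at 3 months, a difference of -0.30 ± 0.27 (adjusted p 0.463). Spliced and unspliced Xbp1 mRNA cannot be told apart by this probe.

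Ddit3 (CHOP), the factor tied to cell death under lasting ER stress, read 11.91, 11.43 and 12.22 at 12 months and 13.35, 12.14 and 11.86 at 3 months. One 3-month array stood above the rest and the difference of -0.60 ± 0.44 had an adjusted p of 0.372. Atf6 read 7.28, 7.47 and 7.61 at 12 months and 6.94, 7.93 and 7.48 at 3 months, and its difference of 0.00 ± 0.31 took either sign under the alternatives. Trib3, a pseudokinase induced by Atf4 and CHOP, differed by 0.44 ± 0.73.

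The chaperones and cochaperones moved apart from each other: of 10 tested, Hsp90b1, Canx and Calr were higher, Hyou1 was lower, and the other six passed no threshold. Hspa5 (BiP), the main ER chaperone and a sentinel of the stress response, read 17.04, 17.09 and 17.12 at 12 months and 16.73, 16.87 and 16.92 at 3 months. All 3 of the 12-month arrays were higher, yet the difference was 0.24 ± 0.21 (1.18-fold, adjusted p 0.450), and with the 75th percentile shift it was -0.15. Hsp90b1 (GRP94), the ER chaperone of the Hsp90 family, read 16.45, 16.76 and 16.10 at 12 months and 15.12, 15.26 and 15.21 at 3 months. Its ages lay well apart, with a difference of 1.24 ± 0.25 (2.36-fold, adjusted p 0.0357). With the 75th percentile shift the difference was 0.83, with an adjusted p of 0.0779.

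The lectin chaperones Calr and Canx, which hold newly made glycoproteins, both passed the study's threshold. Canx read 5.30, 5.85 and 6.13 at 12 months and 3.83, 3.92 and 4.45 at 3 months, and its ages did not overlap. The difference was 1.69 ± 0.32 (3.23-fold, adjusted p 0.0279). Its probe was dim, and with normexp correction of the median signals the difference was 0.52 (adjusted p 0.0758). Calr read 12.84, 10.71 and 13.53 at 12 months and 10.18, 10.89 and 7.78 at 3 months. One 12-month array lay below one 3-month array, and the difference of 2.74 ± 0.99 (6.69-fold) had an adjusted p of 0.116.

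Hyou1 (GRP170), the nucleotide exchange factor of BiP, was the member of this machinery that fell. It read 13.17, 13.99 and 13.35 at 12 months and 14.88, 14.23 and 15.52 at 3 months. The ages did not overlap, and the difference of -1.37 ± 0.40 (2.59-fold lower) had an adjusted p of 0.0763. A dimmer probe of the same gene gave -1.18 ± 0.45. Dnajb11 (ERdj3), a cochaperone of BiP, lay at -0.89 ± 0.28 and Creld2 at -0.74 ± 0.33, both with ages that did not overlap but adjusted p of 0.0893 and 0.176.

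The rest of the group stayed closer to 0. Dnajb9 (ERdj4), which is known to hold IRE1 inactive, differed by 0.26 ± 0.25, and Sdf2l1, a partner of ERdj3, by 0.57 ± 0.43. Hspa13 differed by -0.23 ± 0.32. Dnajc3 (p58IPK), an inhibitor of PERK, had its single spot marked as an outlier by the scanner software on the 3-month arrays, so that it was not tested. With the marked spots kept it read 13.00, 11.57 and 13.70 at 12 months and 12.32, 12.69 and 11.01 at 3 months, a difference of 0.75 ± 0.65 with an adjusted p of 0.446. No probe passing the background filter was matched to Manf.

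**Figure D3:**
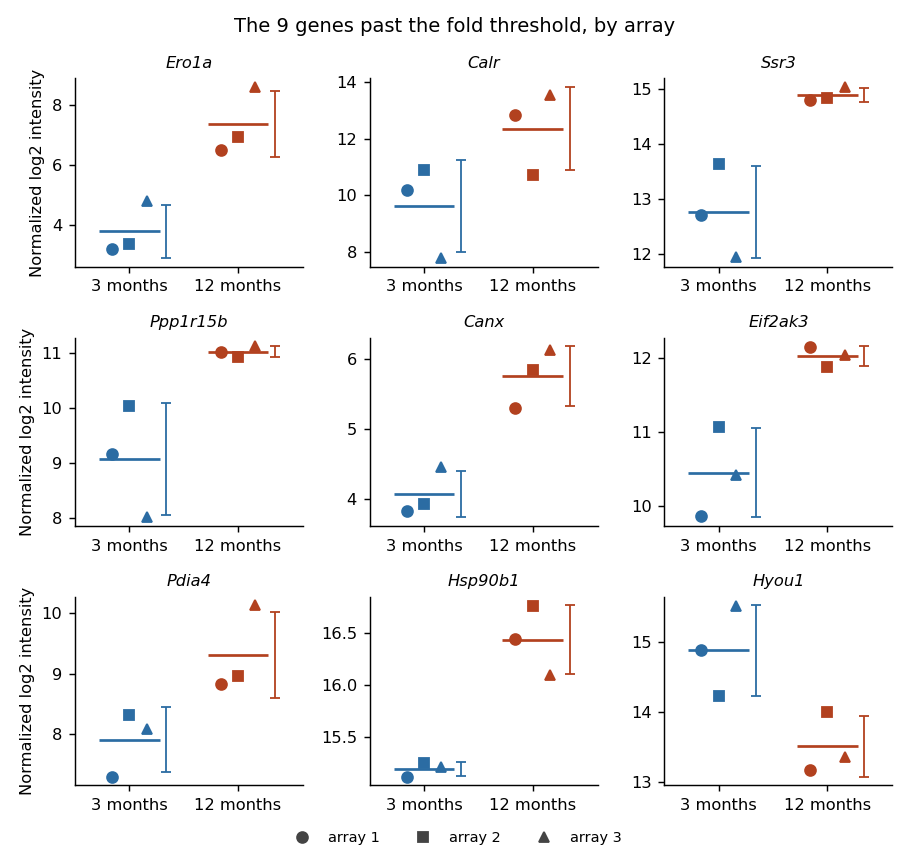
Normalised log2 intensity of the 9 genes past the study's threshold on each array, with blue for 3 months, red for 12 months, a marker shape per array, a line at the mean and a bar of 1 SD beside it; axes do not start at 0 and differ between genes. The ages are apart for each gene except Calr, where 12-month array 2 at 10.71 lies below 3-month array 2 at 10.89, and Hyou1 is the one with the 3-month arrays on top.

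Of the disulphide isomerases and oxidases 5 of 7 were tested, and Ero1a and Pdia4 were higher at 12 months. Ero1a, the oxidase that passes electrons from the isomerases to oxygen, read 6.52, 6.95 and 8.61 at 12 months and 3.19, 3.35 and 4.81 at 3 months. It was well above background on all 12-month arrays but on 1 of 3 at 3 months, so that the 3-month mean rests largely on signal near background and no fold is given. It passed the filter through the age where it was high, and the fitted difference was 3.58 ± 0.66 (adjusted p 0.0273). It was 1.43 with normexp correction (adjusted p 0.0590). With only probes well above background on all 6 arrays Ero1a was not tested, and Ppp1r15b joined the other 4 at the adjusted threshold. Ero1b, the form enriched in beta cells, was not matched to a probe that passed the filter.

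Pdia4 (ERp72) read 8.83, 8.97 and 10.13 at 12 months and 7.30, 8.32 and 8.09 at 3 months, with no overlap and a difference of 1.40 ± 0.45 (2.65-fold, adjusted p 0.0898). P4hb (PDI), the classical isomerase, pointed the other way at -0.49 ± 0.21 with no overlap and an adjusted p of 0.164. Pdia6 differed by 0.23 ± 0.23. Pdia2, an isomerase known from acinar cells, read 12.68, 8.82 and 13.84 at 12 months and 12.62, 12.68 and 9.81 at 3 months. One array of each age was far below the other two, and the difference was 0.08 ± 1.39. Pdia3 (ERp57) was not matched to a probe that passed the filter.

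All 4 translocon genes were tested, and Ssr3 was the one that differed. Ssr3, a subunit of the translocon-associated protein (TRAP) complex that helps some signal sequences, proinsulin's among them, enter the channel, read 14.79, 14.83 and 15.03 at 12 months and 12.70, 13.63 and 11.95 at 3 months. The 12-month arrays were close together and all above the 3-month ones, with a difference of 2.12 ± 0.43 (4.36-fold, adjusted p 0.0347). Ssr1, another TRAP subunit, read 14.52, 14.65 and 14.24 at 12 months and 14.14, 14.32 and 14.44 at 3 months, a difference of 0.17 ± 0.24 that was -0.18 with the 75th percentile shift. The channel subunits Sec61a1 and Sec61b differed by -0.31 ± 0.25 and 0.32 ± 0.21, and the 12-month arrays of Sec61b all lay above the 3-month ones.

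None of the 6 tested genes of ER-associated degradation and of the ER membrane passed a threshold or an unadjusted p of 0.05. Over all tested genes 30.6% had such a p, and 9.80% and 9.67% passed the study's threshold upwards and downwards. With 6 genes a count of 0 does not set this role apart. Of the 6 genes 1, Derl1, lay above 0 (0.53 ± 0.24, adjusted p 0.180, no overlap). Their median was -0.25, while the medians of the other 4 roles lay between 0.22 and 0.25. A further list of ER-associated degradation genes did not share this: its 19 tested genes had a median of 0.18, and 12 lay above 0. Sel1l, the scaffold of the ubiquitin ligase complex, read 13.01, 11.76 and 13.38 at 12 months and 13.86, 14.65 and 13.12 at 3 months, a difference of -1.16 ± 0.55 (adjusted p 0.190). Its ages overlapped through the highest 12-month and the lowest 3-month array. Syvn1 (HRD1), the ligase itself, differed by -0.25 ± 0.33, and Herpud1, an adaptor of the complex and a target of the stress response, by -0.26 ± 0.27. Vcp, the ATPase that pulls proteins out of the membrane, differed by -0.08 ± 0.23. Wfs1, a membrane protein whose loss causes diabetes in Wolfram syndrome, read 10.80, 11.53 and 10.91 at 12 months and 11.82, 10.87 and 12.14 at 3 months, a difference of -0.53 ± 0.40 (adjusted p 0.376). Ern1, Derl2 and Edem1 were not matched to a probe that passed the filter.

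Arrays of one age did not all behave alike, and some of these genes were low on the same arrays as several acinar enzymes. On 12-month array 2 and 3-month array 3 several acinar transcripts were low: Cel, a lipase of acinar cells, read 17.36, 14.36 and 17.88 at 12 months and 17.15, 17.31 and 14.82 at 3 months. Of the 19 tested acinar genes 9 were lowest on these arrays within both ages. The same held for 2 of 4 duct, 3 of 6 endothelial, 3 of 8 beta cell, 3 of 8 immediate early and 2 of 6 stellate and mesenchymal genes. It held for 1 of 8 other endocrine, 1 of 6 immune, 0 of 9 nerve and Schwann cell, 0 of 3 red blood cell and 0 of 2 plasma cell genes. These counts take no account of how far below a gene lay. Of the 33 ER genes 11 (33.3%) were lowest on these arrays within both ages, against 19.4% of all tested genes. They were Pdia2, Calr, Trib3, Sel1l, Sdf2l1, Creld2, Ddit3, Syvn1, Xbp1, Ppp1r15b and Ppp1r15a. The distance to the next array of the same age, taken in the age where it was smaller, was 2.81 log2 units for Pdia2, 2.13 for Calr and 0.97 for Trib3, but 0.01 for Ppp1r15a. Without these arrays Calr differed by 2.65 and Pdia2 by 0.61, and 10 genes passed the study's threshold, 8 of them higher. At an adjusted p under 0.05 there were then 0. The part of acinar RNA in these results was not tested.

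**Figure D4:**
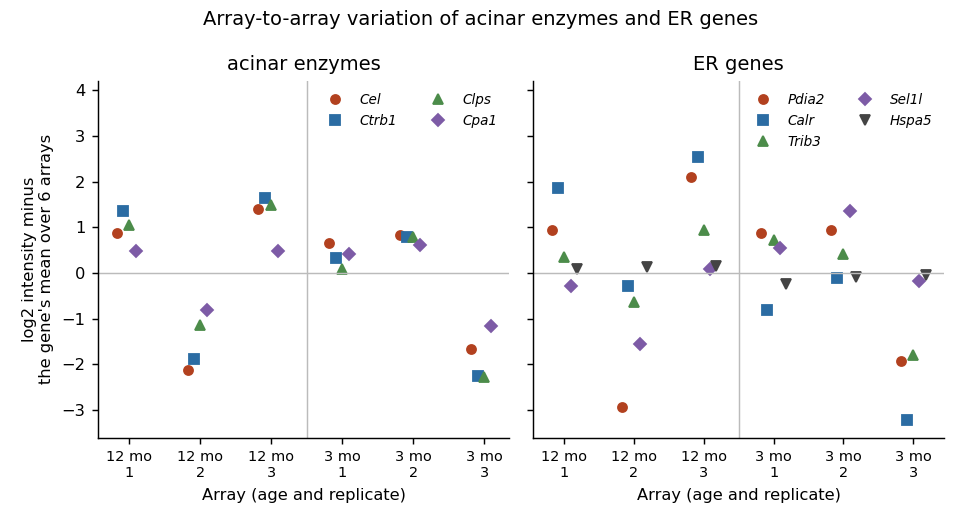
Log2 intensity on each of the 6 arrays as a distance from the gene's own mean over all 6, for 4 acinar enzymes on the left and for 5 ER genes on the right, 1 marker per array and gene. Pdia2, Calr and Trib3 are low where these 4 acinar enzymes are low, on 12-month array 2 and 3-month array 3. Hspa5 stays near 0 on every array. Of the 19 tested acinar genes 9 were lowest on these arrays within both ages, and the others were not.

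Markers of other cells were compared in the same way. Of 6 tested genes of stellate and mesenchymal cells 5 were higher at 12 months at the study's threshold (summed signal 14.7 to 16.0 at 12 months and 13.3 to 14.1 at 3 months), and of 9 tested genes of nerve and Schwann cells 5 were lower (11.7 to 12.2 and 12.9 to 13.7). Of 8 tested immediate early genes, known to be raised by islet isolation, 2 were higher (15.3 to 16.4 and 15.1 to 15.3), and of 8 tested beta cell genes 2 were higher (20.01 to 20.20 and 19.66 to 19.90). Of 6 tested endothelial genes 1 was higher and 2 were lower (14.9 to 15.7 and 15.8 to 16.2), and of 8 tested genes of other endocrine cells 1 was higher (19.80 to 19.95 and 19.46 to 19.60). Each tested marker of these lists was above background on at least 3 arrays because the filter required it. The part of these cells and of the isolation in the differences of the ER genes was not tested.

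Within an age the ER genes varied about as much as other genes: the SD pooled over both ages had a median of 0.384 over the 33 genes, from 0.030 (Atf4) to 2.19 (Pdia2), beside 0.406 over all genes with a value on each array.

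The rest of the secretory pathway, listed apart from these genes, gave 142 names, of which 108 were tested. Their median difference was 0.12. At an adjusted p under 0.05 12 were higher and 1 was lower, against 4.87% and 2.98% of all tested genes. At the study's threshold 14 were higher and 1 lower, against 9.80% and 9.67% of all tested genes. With the 75th percentile shift that split was 14 and 8, against 7.46% and 15.8%. The largest rises past the adjusted threshold were those of Tmed2, a cargo receptor of vesicles between ER and Golgi (4.83 ± 1.08), Eif2s1, which encodes the eIF2 alpha that PERK phosphorylates (3.47 ± 0.43), and Uggt1, the sensor that returns misfolded glycoproteins to Calr and Canx (3.35 ± 0.51). Uggt1 was well above background on 2 of the 3-month arrays, and its difference was 1.48 with normexp correction. Eif2s1 read 9.59, 9.47 and 10.30 at 12 months and 7.15, 6.04 and 5.77 at 3 months, well apart (adjusted p 0.0100). Tmed2 read 14.15, 13.90 and 14.18 at 12 months and 10.58, 10.66 and 6.48 at 3 months, where array 3 lay far below the others.

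The one gene that fell was Os9, a lectin that hands misfolded glycoproteins to the Sel1l complex. It read 13.79, 13.57 and 14.02 at 12 months and 15.10, 14.91 and 14.99 at 3 months, a difference of -1.21 ± 0.23 (adjusted p 0.030). Tram1, which works beside the translocon, was higher by 1.70 ± 0.28, and the ER to Golgi genes Lman1, Sec23a and Sec22b by 2.72 ± 0.40, 2.29 ± 0.37 and 2.08 ± 0.40. Of 12 tested genes of N-glycosylation 0 passed the study's threshold, with a median of -0.32, and 2 had an unadjusted p under 0.05, where 30.6% of all tested genes did. Some of these genes, with Canx and Ero1a, are also in a pathway list the study drew from the same arrays, which is then no independent evidence of their direction.

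**Figure D5:**
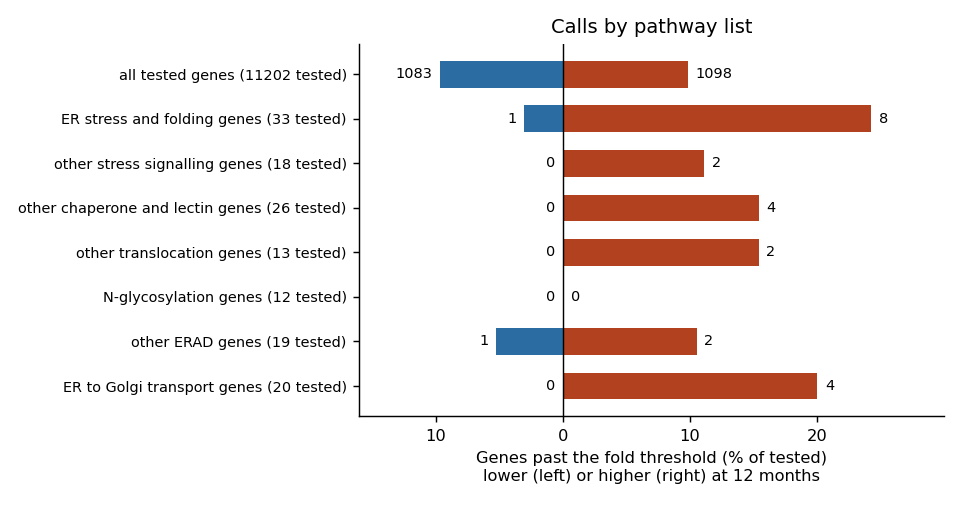
Share of tested genes past the study's threshold (percent of tested, with the number of genes at each bar), lower at 12 months to the left and higher to the right, for all tested genes, the ER stress and folding genes and 6 further lists. With quantile normalisation all tested genes split evenly (1098 higher and 1083 lower), and the 33 ER genes gave 8 and 1. With the 75th percentile shift, not drawn, all tested genes gave 836 higher and 1775 lower, and 7 of the 11 ER genes called were higher. The 12 tested genes of N-glycosylation gave 0 in both directions, too few genes to set that list apart.

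The calls at the adjusted threshold depended on each array. When 12-month array 1, 12-month array 3 or 3-month array 1 was left out, 0 ER genes were called. Without 12-month array 2 there were 3 (Canx, Ero1a and Ssr3), without 3-month array 2 there were 3 (Eif2ak3, Ssr3 and Ppp1r15b, which had not been called before), and without 3-month array 3 there was 1 (Ero1a). Ssr3 and Ero1a passed in 2 of these 6 fits, Eif2ak3, Canx and Ppp1r15b in 1 and Hsp90b1 in 0. The sizes moved less: over the 6 fits Eif2ak3 lay between 1.28 and 1.89, Hsp90b1 between 1.08 and 1.41, Ssr3 between 1.72 and 2.56, Canx between 1.505 and 1.92 and Ero1a between 2.95 and 4.09, and each passed the study's threshold in all 6. Calr passed it in 3 of the 6 and Pdia4 in 4.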

How the data were processed

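Islet RNA of 6 rats was hybridised to 6 arrays of 1 colour, and age was taken from the labels. Spot intensity in the deposited scanner files had been quantified by the authors with Agilent Feature Extraction 11.0.1.1, background-subtracted but not normalised between arrays. The authors also deposited a table of quantile-normalised log2 values, used here as an alternative. The number of arrays limits the precision.

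For each probe, spots not marked as outliers were averaged as log2 background-subtracted intensity, followed by quantile normalisation. Probes well above background on at least 3 arrays were compared between ages with limma 3.58.1 under R 4.3.3 (two-sided moderated test by lmFit and eBayes, without a block), a step that was first tested on simulated data. Gene names came from RefSeq accessions (14274 of 15323 mRNA probes matched to assembly GRCr8; the array design has another build, so that probes have no coordinates here). For genes with several probes the brightest was used. An exact permutation of 3 against 3 arrays cannot give a two-sided p under 0.1, so none is given.

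The genes and lists were chosen with earlier results of these data known. Genes described in full were those past either threshold, with Hspa5, Xbp1, Atf6, Atf4, Ddit3, Pdia2 and Wfs1, and, of other pathway genes, the 3 largest rises and falls at an adjusted p under 0.05 (1 fell); Ssr1, Sel1l, Tram1, Lman1, Sec23a and Sec22b were added after their values were seen, as were the alternatives for them and for the other pathway genes. Alternatives were another scaling, normexp correction (offset 50, median signals), the authors' table, filters on dim probes, variance models, array weights, replicate blocks, 4 arrays whose names share an ending, t-tests, mean of probes, another threshold and each array left out. Chosen after seeing the data were leaving out the arrays low in several acinar transcripts and keeping outlier spots. The other calls among pathway genes, Tmx1, Ngly1, Rcn2, Tmx4 and Ube2g1, were also named after their values were seen. They were not followed one by one under the alternatives.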

Additional observations from a re-analysis of the deposited data

How the results depend on the processing

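At an adjusted p under 0.05 5 ER genes were called. This count was 3 with the 75th percentile shift, 8 with an intensity trend and robust variances (6 higher and 2 lower), 9 with array weights (7 and 2; their estimate stopped before converging), 9 (7 and 2) when the adjusted threshold was 0.1, 1 with the methods' t-test (Atf4, lower, and none of the 5), 0 with the paired t-test, 0 on the 4 arrays whose names share an ending and 0 on the 4 arrays other than 12-month 2 and 3-month 3. The count at the study's threshold, 9, was 3 with the paired t-test that the study's tables name and between 7 and 11 otherwise. The median difference, 0.17, was -0.17 with the 75th percentile shift. Of the other pathway genes 15 passed the study's threshold, and 24 did so with array weights. The numbers in the labels did not pair the arrays (correlations of deviations -0.01, -0.31 and -0.26, the third pair by elimination, since 1 of the 12-month arrays has no number). The replicate block on the numbered pairs only used 4 arrays, 2 of each age. With it 0 genes were called at the adjusted threshold, the median was -0.056 and 25 genes did not overlap in place of 16. Ages lie apart more easily when there are fewer arrays. The counts without overlap from this fit and from those with an array left out therefore cannot be compared with 16. With the replicate block on 3 pairs 1 was called. With each array left out in turn the ranges were 0 to 3 genes at the adjusted threshold, 8 to 9 at the study's, 0.020 to 0.26 for the median, 17 to 20 without overlap and 15 to 27 other pathway genes. The sign changed for 4 of the 26 genes followed one by one. Array weights gave Atf6 a value of -0.20, the 75th percentile shift -0.17, the block on the numbered pairs -0.056 and the 4 arrays whose names share an ending -0.33, and it lay between -0.25 and 0.24 with an array left out. Pdia2 was at -0.14, -1.90 and -0.49 with the shift, the block and those 4 arrays, and between -0.95 and 1.56 with an array left out. Hspa5 was at -0.15 and Ssr1 at -0.18 with the shift. The cause was not tested in any of these cases. The other 22 kept their sign under the alternatives that were run. Values near background, as for Ero1a and Canx, limit the size of a difference. The negative control signal also differed between the ages, and its part in the direction was not tested.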
